A study of Homo sapiens with 12 samples.

Results

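The comparison of LPS with no LPS in wild-type Mono Mac 6 (MM6) cells covered 801 noncoding RNAs, those listed in both deposited tables once miRNA precursors were set aside, of 1380 listed in either table. They comprised 285 snoRNAs, 233 mature miRNAs, 219 piRNA entries, 57 tRNA entries, 4 small cytoplasmic RNAs (scRNAs) and 3 rRNAs. MM6 is a human monocytic cell line. Every culture, with or without LPS, had first been differentiated for 72 h, according to the labels, in the presence of calcitriol at 50 nM together with TGF-β at 1 ng/mL. The stimulated cultures also received LPS at 1 µg/mL for 6 h. There were 3 libraries of wild-type cells without LPS and 3 with LPS, beside 3 and 3 of cells in which ALOX5, the gene for 5-lipoxygenase (5-LO), had been knocked out by CRISPR/Cas9; the clone behind a knockout library is not named in the labels. Nothing in the labels says that the libraries of a group came from separate cultures.

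LPS, a component of the outer membrane of Gram-negative bacteria, is sensed by Toll-like receptor 4 and activates NF-κB in monocytes. Among the genes that NF-κB switches on are those of miR-146a and, in many settings, miR-155, miR-21, miR-221 and miR-222. miR-146a and miR-146b repress TRAF6 and IRAK1, signalling proteins of the same receptor pathway, and so are known as brakes on it. A miRNA hairpin is cut by Dicer into a duplex with a 5p and a 3p arm, one of which is usually kept as the guide while the other is mostly degraded.

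The sequences of the miRNAs on which the results turn are shown from RefSeq (GRCh38.p14), written 5′ to 3′ with the seed, bases 2 to 8, in capitals, since the seed sets which mRNAs a miRNA can pair with. The first 4 are the arms of both miR-146 hairpins, the next 4 are other members of the LPS list, and the last is the miRNA furthest below 0.
miR-146a-5p: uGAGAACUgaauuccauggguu
miR-146b-5p: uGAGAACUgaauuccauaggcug
miR-146a-3p: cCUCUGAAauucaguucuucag
miR-146b-3p: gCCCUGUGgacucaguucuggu
miR-21-5p: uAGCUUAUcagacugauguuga
miR-221-3p: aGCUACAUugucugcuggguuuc
miR-222-3p: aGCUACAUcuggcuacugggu
miR-155-5p: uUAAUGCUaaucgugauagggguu
miR-484: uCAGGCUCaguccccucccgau
miR-146a-5p and miR-146b-5p share their seed and 20 of the 22 positions compared, the differences being G18A and U21C (the base of miR-146a-5p first, positions counted from 1 at the 5′ end). The other arms of these hairpins, miR-146a-3p and miR-146b-3p, have different seeds and the same base at 6 of 22 positions. miR-221-3p and miR-222-3p share a seed. miR-21-3p and miR-221-5p are named without a sequence.

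In GRCh37, the build behind the hg19 annotation of the files, MIR146B lies on the forward strand at chr10:104196269-104196341 and overlaps no other annotated gene. MIR21 lies at chr17:57918627-57918698 on the forward strand, inside an exon of VMP1. MIR221 and MIR222 lie on the reverse strand at chrX:45605585-45605694, in an exon of the noncoding gene MIR222HG, and at chrX:45606421-45606530, in an intron of it. MIR484 lies at chr16:15737151-15737229 on the forward strand, inside an exon of NDE1.

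Each deposited value is the authors' mean of the normalised read counts of the 3 libraries of a group, so there was 1 value per group, no replicate SD and no test. The tables with and without LPS were normalised apart, so LPS and the table cannot be told apart in the overall scale. The median log2 ratio over the 425 RNAs with both wild-type means of at least 50, which was -0.18, was therefore subtracted, and what remains is called the centred log2 ratio. It is positive where the RNA was higher with LPS relative to the other small RNAs. Ratios were compared for the 565 RNAs whose 2 wild-type means averaged at least 10: 276 snoRNAs, 131 piRNA entries, 109 mature miRNAs, 42 tRNA entries, 4 scRNAs and 3 rRNAs. The other 236 were below this average, 53 of all members were listed at 0 in 1 wild-type column and 16 in both. Size factors recovered from the low means gave the number of reads behind a mean and from it a 95% counting interval, which covers counting error only. A wider interval adds the spread between libraries seen in RNAs with means from 3 to 10, a CV of 31% without LPS and 35% with LPS beyond counting error, and carries that spread over to abundant RNAs, where it could not be measured.

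Most small RNAs kept their relative level. Of the 565 RNAs, 407 (72.0%) had a centred log2 ratio of at most 0.25 in size. At least 2-fold higher with LPS were 19 (3.36%), made up of 11 piRNA entries, 6 mature miRNAs and 2 tRNA entries. At least 2-fold lower was 1 (0.177%), miR-484. The wider interval of each of these 20 was clear of 0. Counting RNAs of any size of ratio, the wider interval lay above 0 for 26 (4.6%) and below 0 for miR-484 alone. With the spread of the RNA's own type in place of the spread over all types, an alternative chosen after seeing the data, it was clear for 18 of the 19 higher RNAs (3.19% of 565) and for miR-484, the exception being tRNA-Arg-CGA. In 6 of the 20, among them miR-146b-3p, miR-146a-3p and miR-484, 1 of the 2 means was under 10, and 12 of all 565 RNAs were of that kind. An RNA with a mean under 10 in 1 group passes the filter only through a mean above 10 in the other. The lower that mean, the larger the ratio had to be.

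**Figure D1:**
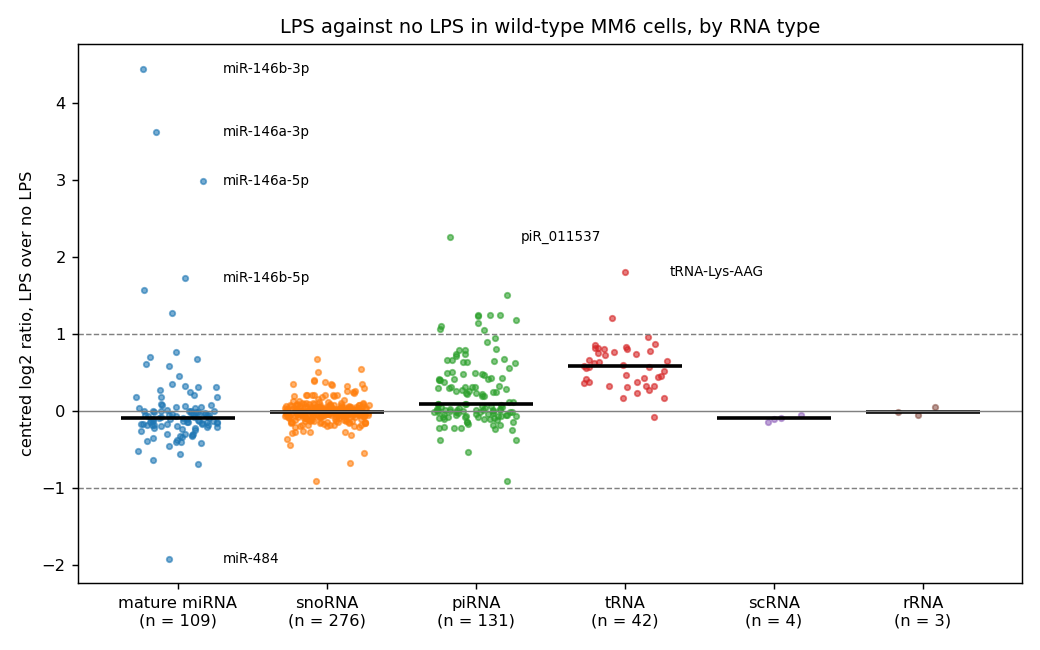
Centred log2 ratio of LPS over no LPS in wild-type cells (vertical axis) for each RNA compared, by type, with points spread sideways at random, black bars at the median of a type and dashed lines at 2-fold. The 4 miR-146 arms stand at 1.73 to 4.45 above the other miRNAs, the snoRNAs crowd around 0, and 41 of 42 tRNA entries lie above 0.

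The clearest difference was in the miR-146 family, in all 4 arms of both hairpins. miR-146b-5p, the most abundant of them, had a mean of 1268 without LPS and 3704 with LPS, a 3.32-fold higher level (log2 1.73, counting interval 1.68 to 1.78, wider interval 0.97 to 2.49). It moved from rank 14 to rank 6 among the 233 mature miRNAs by the deposited mean and from 1.24% to 3.97% of their sum. miR-146a-5p, which carries the same seed, had means of 66.9 and 468, 7.95-fold higher (log2 2.99, counting interval 2.78 to 3.20, wider interval 2.20 to 3.78), and moved from rank 60 to rank 20. Together the 4 arms made up 1.31% of the mature miRNA signal without LPS and 4.66% with LPS.

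The 3p arms of these hairpins, the less abundant ones, were higher with LPS as well, and in miR-146b by more than the 5p arm. miR-146b-3p had a mean of 8.0 without LPS, from 9, 9 and 7 recovered reads in the 3 libraries, and of 154 with LPS, 21.9-fold higher (log2 4.45, counting interval 3.87 to 5.04, wider interval 3.49 to 5.41). The 3 libraries without LPS were close to each other, at 7.20, 7.92 and 8.86 normalised reads, and leaving out any of them gave a log2 ratio of 4.38 to 4.53. miR-146a-3p had means of 1.87 and 20.3, 12.3-fold higher (log2 3.62, counting interval 2.39 to 4.86, wider interval 2.17 to 5.07). Its low level without LPS rested on 7 reads in 1 library and 0 reads in each of the other two. With a pseudocount of 10 the log2 ratio was 3.37 for miR-146b-3p and 1.53 for miR-146a-3p. Leaving out either library of miR-146a-3p without a read gave 3.04, and without the library that held the 7 reads the mean is 0 and no ratio is given.

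miR-21-3p and miR-221-5p, again the less abundant arms of their hairpins, were the other mature miRNAs past 2-fold. miR-21-3p had means of 62.0 and 162, 2.97-fold higher (log2 1.57, wider interval 0.77 to 2.37). miR-221-5p had means of 10.5 and 22.4, 2.42-fold higher (log2 1.28, wider interval 0.30 to 2.25). Their partner arms had smaller ratios. miR-21-5p, an abundant miRNA of myeloid cells, had means of 2499 and 2816 (log2 0.36, counting interval 0.31 to 0.40, wider interval -0.41 to 1.12). miR-221-3p had means of 557 and 567 (log2 0.21), and miR-222-3p, with the same seed, 210 and 315 (log2 0.77, wider interval -0.01 to 1.55).

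miR-155-5p, the product of the BIC transcript and a classical LPS-responsive miRNA, differed little. Its means were 1358 and 1360, a centred log2 ratio of 0.19 with a counting interval of 0.12 to 0.25 and a wider interval of -0.58 to 0.95. It held rank 12 in both columns. miR-9-5p had means of 16.2 and 19.7 (log2 0.46, counting interval -0.08 to 1.01). miR-132-3p, with 2.20 and 2.14, was too low to compare, miR-9-3p and miR-222-5p had means under 1, and miR-147b was listed at 0 in both wild-type columns.

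Of the 22 names in the list of LPS and NF-κB inducible miRNAs, 15 were members and 11 were compared. All 11 were above 0, with a median of 1.28, where 33 of the 109 mature miRNAs compared (30.3%) were above 0, with a median of -0.08. At least 2-fold higher were 6 of the 11, and these were the same 6 as among all mature miRNAs (6 of 109, 5.5%). miR-146b-3p and miR-146a-3p, 2 of the 6, passed the filter only through their level with LPS, while miR-9-3p and miR-222-5p, lower with LPS at means under 1, did not pass it. Of the 9 members with both means of at least 10, 9 were above 0 and 4 at least 2-fold higher, with a median of 0.77, beside 30 and 4 of the 104 such mature miRNAs with a median of -0.09. Without centring the ratio of miR-155-5p was 0.0028, within its counting error of 0. The list is not independent of earlier results of these data.

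**Figure D2:**
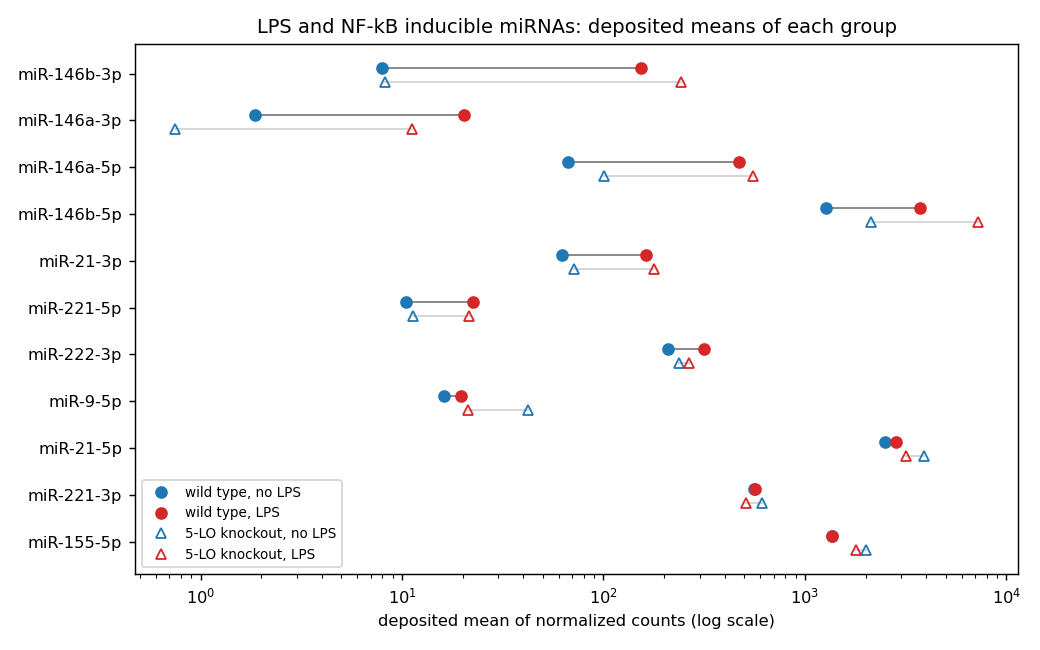
Deposited means (horizontal axis, log scale) of the 11 members of the LPS and NF-κB list compared in wild-type cells, as filled circles for wild type and open triangles for 5-LO knockout, blue without and red with LPS. The pairs for the 4 miR-146 arms, miR-21-3p and miR-221-5p lie apart, while for miR-155-5p the wild-type circles, at 1358 and 1360, cover each other.

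For miR-21 and miR-146b the arms of one hairpin differed from each other in their change. A ratio of both arms does not depend on the scaling of the tables. For miR-146b, the 3p arm was 0.63% of the sum of both arms without LPS and 4.0% with LPS, so the ratio of minor to major arm was higher by 2.72 on the log2 scale (counting interval 2.14 to 3.31, wider interval 1.5 to 3.95). For miR-21 the 3p arm went from 2.42% to 5.46%, a difference of 1.22 (counting interval 0.97 to 1.46, wider interval 0.11 to 2.32). These were the 2 of 20 hairpins with both arms compared whose wider interval was above 0. The minor arm of miR-146b, low without LPS, entered this comparison only through its level with LPS. In miR-221 the minor 5p arm went from 1.85% to 3.81% (log2 1.07, counting interval 0.46 to 1.68, wider interval -0.17 to 2.31), and in miR-181a the 3p arm gained 0.79 (counting interval 0.30 to 1.27).

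The same measure was small or uncertain in the remaining hairpins. In miR-146a both arms were higher, and their ratio differed by 0.63 with a counting interval of -0.62 to 1.88, which the few reads of its 3p arm left wide. Over the 20 hairpins the minor arm gained on the major one in 15 and lost in 5, the median was 0.14 and the lowest value, for miR-423, was -0.24 (counting interval -0.62 to 0.14). No counting interval lay below 0, and 4 lay above it. The filter favoured gains of a minor arm that was low without LPS: 3 minor arms, those of miR-146b, miR-146a and miR-27a, were under 10 without LPS and entered only through their level with LPS, and 1, of miR-17, was under 10 with LPS. Over the 16 hairpins left without these, the minor arm gained in 12 and lost in 4, with a median of 0.08. Among these 16, miR-21 alone had a wider interval above 0.

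**Figure D3:**
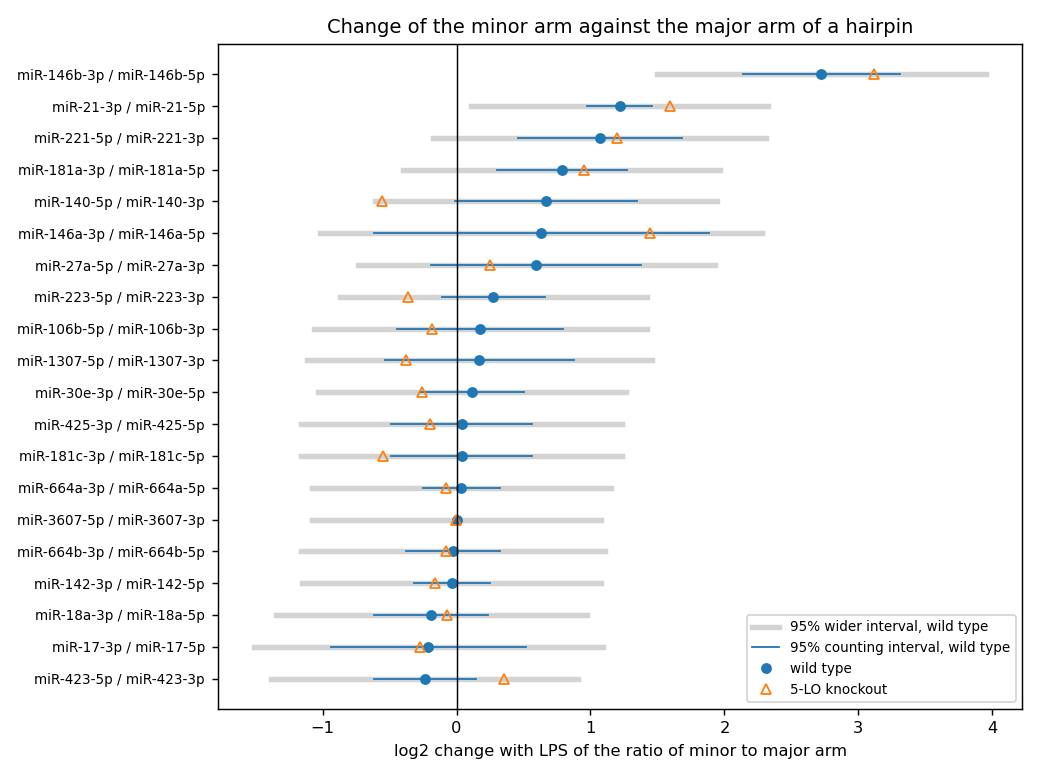
Log2 difference between LPS and no LPS in the ratio of minor to major arm (horizontal axis) for 20 hairpins in wild-type cells, as circles with counting intervals (thin lines) and wider intervals (grey bars), and triangles for 5-LO knockout. miR-146b, at 2.72, and miR-21, at 1.22, are the hairpins whose grey bar lies to the right of 0.

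Lower with LPS, miR-484 was the only RNA past 2-fold (0.917% of the mature miRNAs), with means of 18.6 and 4.33 (log2 -1.92, counting interval -2.79 to -1.05, wider interval -3.08 to -0.76). Its libraries with LPS held 12, 0 and 4 recovered reads, so that 1 library had none. Leaving out each of these libraries in turn gave -2.45 to -1.33. The next lowest miRNAs were miR-101-3p, with 48.8 and 26.7 (log2 -0.69), miR-23a-3p, with 26.6 and 15.1 (log2 -0.63), miR-152, with 36.5 and 21.8 (log2 -0.56), and miR-18a-3p, with 57.4 and 35.2 (log2 -0.52). Their counting intervals were below 0 and their wider intervals included it. Between the extremes, 71 of 109 mature miRNAs were within 0.25 of 0, 11 were above 0.5 and 5 below -0.5.

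Myeloid miRNAs and broadly expressed families differed little. miR-223-3p, a hallmark of myeloid cells, had means of 93.8 and 60.4 (log2 -0.45, counting interval -0.72 to -0.19, wider interval -1.26 to 0.35). miR-142-5p and miR-142-3p, made in cells of the blood lineage, were at -0.17 and -0.20. Of the 9 myeloid miRNAs compared, 7 were below 0 (median -0.18), none by 2-fold. All 13 compared members of the miR-17-92 cluster and its paralogs, which promote proliferation, were below 0 with a median of -0.15 and a lowest value of -0.52 (miR-18a-3p). With centring on mature miRNAs alone 11 of the 13 were below 0, with a median of -0.07. The same centring put 55 rather than 76 of all 109 mature miRNAs below 0, so a small negative value of a miRNA family depended on the scaling.

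The let-7 family, with 8 matched members that share a seed, spanned only -0.13 to 0.32. Its highest member was let-7e-5p, with means of 197 and 217 (log2 0.32), which is transcribed with miR-99b and miR-125a. From the same cluster miR-125a-5p had 45.5 and 65.4 (log2 0.70, counting interval 0.39 to 1.02, wider interval -0.12 to 1.53) and miR-99b-5p 36.5 and 34.3 (log2 0.10, counting interval -0.29 to 0.48). The 3 were above 0, and miR-99b-5p was below 0 without centring. Of all 109 mature miRNAs compared, 76 were below 0, and the smaller families were close to that share. Of the 5 compared members of the miR-30 family 4 were below 0 (median -0.07), as were 5 of 6 in the miR-181 family (median -0.12), 4 of 5 in the miR-23, miR-27 and miR-24 clusters (median -0.04) and 2 of 3 in the miR-15 and miR-16 family (median -0.17). With centring on mature miRNAs alone, 2 of 5 were below 0 in the miR-30 family and 2 of 5 in the miR-23, miR-27 and miR-24 clusters. No member of the miR-29 family reached the average needed.

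Of the 109 mature miRNAs compared, 94 were matched to a RefSeq sequence, and they carried 69 seeds, 14 of which belonged to more than 1 miRNA. Sequences annotated to chr8 were left out of the match, so miR-30b-5p, for example, was compared but is not counted under its seed. Among those 14 seeds, GAGAACU of miR-146a-5p and miR-146b-5p was the only one with members past 2-fold, at 2.99 and 1.73. The seed GCUACAU of miR-221-3p and miR-222-3p stood at 0.21 and 0.77, and AAAGUGC of miR-17-5p, miR-20a-5p, miR-93-5p and miR-106b-5p at -0.23 to -0.11.

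The most abundant mature entries were miR-3607-3p, at 22225 and 19561, and miR-3607-5p, at 22198 and 19543, both within 0.01 of 0 after centring. miR-92a-3p followed with 9990 and 8598 (log2 -0.03), then miR-1291 with 9633 and 8828 (log2 0.06) and let-7f-5p with 5749 and 5115 (log2 0.01). miR-3607 and miR-1291 are known to lie within snoRNA sequences. miR-3607-3p alone made up 21.7% of the mature miRNA sum without and 21.0% with LPS. Such entries thus weigh on the shares given for other miRNAs. As a check on the cells, 5 of the 29 miRNAs on the list of markers of other tissues were members, with a summed mean of 68.9 without and 58.7 with LPS, most of it miR-143-3p (58.7 and 50.1). Liver miR-122-5p, muscle miR-1 and miR-133a and erythroid miR-451a were not among the members.

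Nearly all tRNA entries compared had a higher relative mean with LPS in wild-type cells. They come from the same libraries, so they are not separate observations. The spread of their sum between libraries could not be measured. tRNAs carry amino acids to the ribosome, and in libraries selected for short inserts their reads may come from fragments as well as from whole molecules, which the tables do not separate. Of 42 entries compared, 41 were above 0 (97.6%, against 51.7% of all RNAs), with a median of 0.58 and a range of -0.07 to 1.80. The summed mean went from 66304 to 92128, log2 0.66 after centring, and the tRNA share of all signal from 0.622% to 0.960%. The counting interval was above 0 for 35 entries and the wider interval for 6 (14.3%). The low tRNA entries varied more between libraries than the other low RNAs, with a CV of 49.7% without and 46.3% with LPS, and with that spread the interval of tRNA-Lys-AAG alone lay above 0 (1 of 42, 2.38%). For nearly all single entries the difference was thus within the spread assumed between libraries. Under the other scalings 39 to 42 of the 42 were above 0.

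tRNA-Lys-AAG stood out with means of 2009 and 6180, 3.49-fold higher (log2 1.80, counting interval 1.76 to 1.85, wider interval 1.04 to 2.57, and 0.69 to 2.91 with the tRNA spread). tRNA-Arg-CGA, much rarer, had 7.27 and 14.9 (log2 1.21, wider interval 0.16 to 2.27, and -0.12 to 2.54 with the tRNA spread), and leaving out single libraries without LPS gave 0.87 to 1.91. These were the 2 entries past 2-fold (4.76%). tRNA-Phe-TTY had 33.5 and 57.6 (log2 0.96, wider interval 0.12 to 1.80, and -0.20 to 2.13 with the tRNA spread). Entries that held most of the tRNA signal were higher as well: tRNA-Glu-GAG_ at 24323 and 33059 (log2 0.63), tRNA-Asp-GAY at 14904 and 21796 (log2 0.73) and tRNA-Gln-CAA_ at 10903 and 15221 (log2 0.66). Without tRNA-Lys-AAG, the sum of the rest was still higher by 0.60. Only tRNA-Ser-TCA(m), with 2536 and 2127, was below 0 (log2 -0.07).

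**Figure D4:**
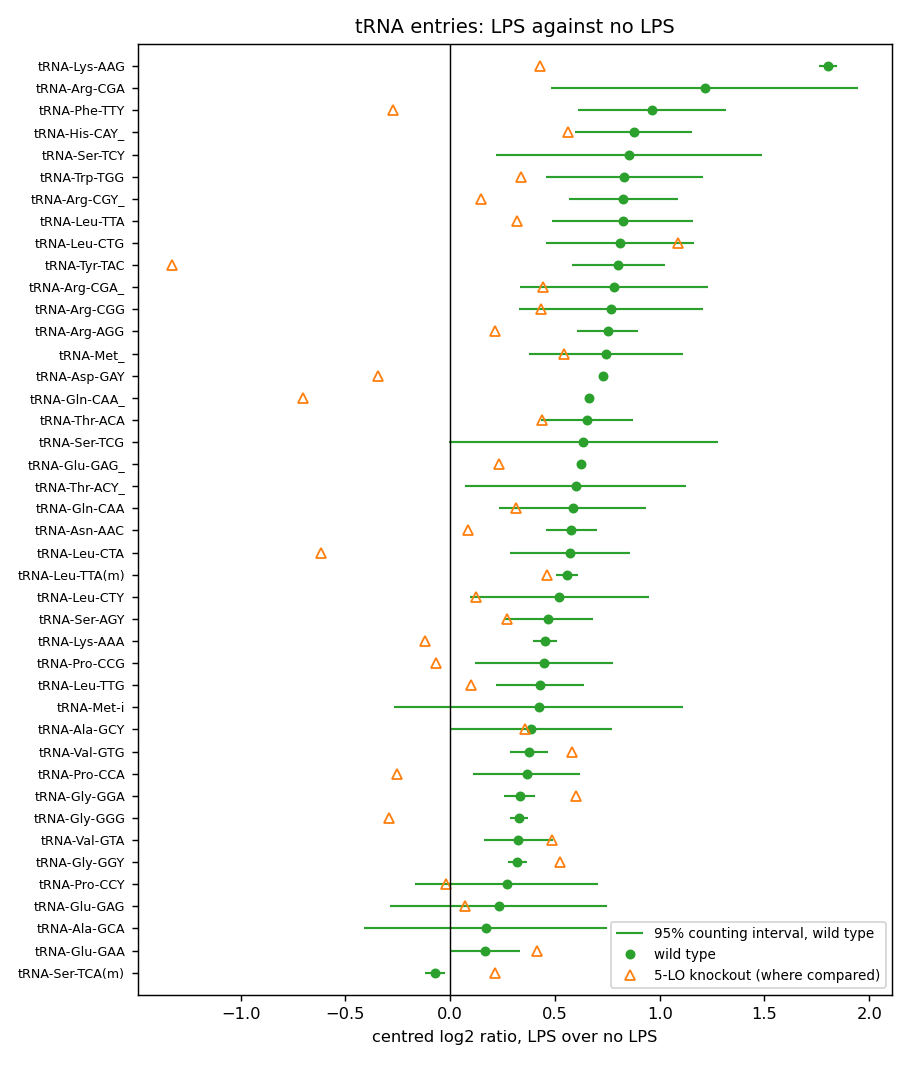
Centred log2 ratio of LPS over no LPS (horizontal axis) for the 42 tRNA entries compared, as circles with 95% counting intervals for wild type and open triangles for 5-LO knockout where compared. All circles but the lowest, tRNA-Ser-TCA(m), lie to the right of 0, tRNA-Lys-AAG furthest at 1.80, and 29 of the 36 triangles lie to the left of their circle.

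Among piRNA entries, 87 of 131 were above 0 (66.4%) with a median of 0.09, and 11 (8.4%) were at least 2-fold higher. piRNAs guide PIWI proteins against transposons in the germ line, and what such catalogue entries measure in a monocytic line was not tested. The highest was piR_011537, with means of 4.51 and 19.0 (log2 2.26, wider interval 1.12 to 3.40). Its libraries without LPS held 12, 4 and 0 reads, and leaving out 1 of them gave 1.67 to 3.46. The 3 joint entries that name piR_019914, piR_016945 and piR_022628 together were all past 2-fold, at 1.51 (means of 317 and 798), 1.26 (505 and 1062) and 1.25 (432 and 904). They name the same piRNAs, so they are not 3 separate observations. piR_022650 had 17.0 and 35.7 (log2 1.25). The median was 0.42 for the 35 entries with an average from 10 to 50, 0.23 for the 39 from 50 to 500 and 0.01 for the 57 above, and 27, 27 and 33 of them were above 0. The lowest was piR_011181, with 18.1 and 8.50 (log2 -0.91, counting interval -1.59 to -0.23, wider interval -1.93 to 0.11, and -1.76 to -0.06 with the piRNA spread), followed by piR_010894, with 50.1 and 30.5 (log2 -0.53). The libraries of piR_011181 with LPS held 22, 12 and 1 recovered reads, so 1 library stood well below the others. The abundant piR_000441, at 26516 and 19945, was at -0.23.

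The snoRNAs, many of which guide chemical modification of rRNA, made up 64.9% of all signal without and 64.7% with LPS and differed little. Of 276 compared, 251 (90.9%) were within 0.25 of 0, 130 above it and 143 below, and none was past 2-fold. The SD of the centred log2 ratio over snoRNAs was 0.16, and 0.076 among the 153 with an average of at least 500. Since snoRNAs were the most numerous type, the centring placed their median near 0, though it left their spread as it was. The 10 snoRNAs from introns of GAS5, a growth-arrest gene, lay between -0.20 (U79) and 0.07 (U44), and the 8 of SNHG1 between -0.18 (U30) and 0.04 (U26). From RPL13A, U32A and U33 were at 0.03 and 0.02. Among snoRNAs with a counting interval clear of 0, those furthest from 0 were rare ones: ACA39, with 24.2 and 34.1 (log2 0.68), ACA37 (log2 0.51) and ACA67B (log2 0.41) above, HBII-85-4, with 33.6 and 15.8 (log2 -0.91), ACA4, with 28.4 and 15.6 (log2 -0.68) and HBII-115 (log2 -0.54) below. Of 24 HBII-85 copies, which come from one repeated locus, 6 were above 0, with a median of -0.03.

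The remaining types were level. The rRNA entries 5S, SSU and LSU were at 0.05, -0.01 and -0.05. The Y RNAs, scaffolds of the Ro particle, were at -0.14 (HY1, 6522 and 5211), -0.10 (HY3), -0.09 (HY5) and -0.05 (HY4). By share of all signal, miRNAs went from 0.960% to 0.971%, piRNA entries from 16.2% to 15.9%, rRNA from 16.9% to 17.1% and scRNAs from 0.312% to 0.289%.

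The same contrast in the knockout libraries, taken from the same tables and centred in the same way (-0.18 over 433 RNAs), gave a second set of libraries for the miRNA values. In knockout cells miR-146b-3p had means of 8.22 and 243 (log2 5.06), miR-146a-5p 100 and 555 (log2 2.65), miR-146b-5p 2131 and 7241 (log2 1.95), miR-21-3p 71.7 and 178 (log2 1.49) and miR-221-5p 11.3 and 21.6 (log2 1.11). All 5 of the miRNAs compared in both genotypes that were past 2-fold higher in wild type were so in knockout cells too, where 7 of 110 (6.36%) were. The wider interval of miR-221-5p in knockout cells, -0.14 to 2.37, included 0, while those of the others lay above it. miR-146a-3p, under the average of 10 in knockout cells, had 0.75 and 11.3 there. The arm ratio of miR-146b differed by 3.12 and that of miR-21 by 1.59 in knockout cells. Over the same 20 hairpins the minor arm gained in 7 there and lost in 13, with a median of -0.08. The LPS effect in wild type minus that in knockout cells was -0.61 for miR-146b-3p (counting interval -1.45 to 0.22, wider interval -2.18 to 0.96). It was 0.34 for miR-146a-5p (counting interval 0.06 to 0.62, wider interval -1.02 to 1.70) and -0.22 for miR-146b-5p (counting interval -0.28 to -0.15, wider interval -1.55 to 1.12). The last 2 were thus past counting error but within the spread assumed between libraries.

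Over the 105 miRNAs compared in both genotypes Pearson's r was 0.86 and Spearman's rho 0.33, given as a description, since both contrasts share the tables. The sign was the same for 67 of the 105. miR-9-5p was at 0.46 in wild type and -0.82 in knockout cells (difference 1.28, counting interval 0.57 to 1.98, wider interval -0.23 to 2.79). miR-484 was not among the 105, since its knockout means, 10.1 and 4.15, averaged under 10, and its ratio there was -1.11 (wider interval -2.58 to 0.36).

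**Figure D5:**
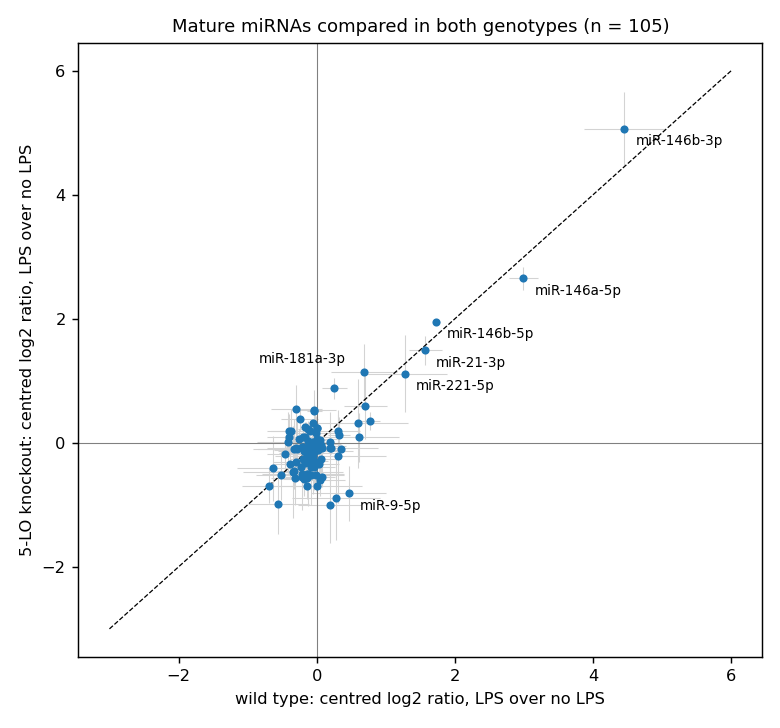
Centred log2 ratio of LPS over no LPS in wild-type (horizontal axis) and 5-LO knockout cells (vertical axis) for the 105 mature miRNAs compared in both, with 95% counting intervals in grey and the line of equal values dashed. miR-146b-3p, miR-146a-5p, miR-146b-5p, miR-21-3p and miR-221-5p lie at the upper right, and most of the others form a cloud around 0.

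The tRNA, piRNA and Y RNA entries were set side by side in the same way. In knockout cells 26 of 36 tRNA entries were above 0, with a median of 0.25, and the tRNA share went from 0.430% to 0.446%. Of all 547 RNAs compared there, 278 were above 0, with a median of 0.003. The wild-type minus knockout difference of the LPS effect had a median of 0.34 over these 36 tRNA entries. Over all RNAs compared in both genotypes the median of this difference was 0.04. Of the 541 RNAs of all types compared in both genotypes, its wider interval lay above 0 for 5 (0.924%) and below 0 for 1 (0.185%), and 3 of these 6 were tRNA entries. The tRNA entries below were named after their values were seen. tRNA-Lys-AAG was at 0.43 there (difference from wild type 1.38, counting interval 1.3 to 1.46, wider interval 0.04 to 2.71), tRNA-Gln-CAA_ at -0.70 (difference 1.37, wider interval 0.03 to 2.70), tRNA-Tyr-TAC at -1.33 against 0.80 in wild type (difference 2.13, wider interval 0.74 to 3.52) and tRNA-Asp-GAY at -0.35 (difference 1.08, wider interval -0.26 to 2.41). Of the 6 piRNA entries compared in both genotypes that were past 2-fold higher in wild type, 0 were so in knockout cells, where 2 of 119 (1.68%) were, and the 3 joint entries were at 0.22 to 0.36. The wider intervals of their differences from wild type were -0.06 to 2.64, -0.45 to 2.24 and -0.34 to 2.35, in the order given above, and all included 0, while with the piRNA spread that of the first was 0.18 to 2.40. The other 5 of the 11 were under the average of 10 in knockout cells, among them piR_011537, which had 3.04 and 10.1 there (log2 1.91, wider interval 0.36 to 3.46). Of all 11, 8 were above 0 in knockout cells and piR_011537 alone was past 2-fold. The 4 Y RNAs, all below 0 in wild type, were at 0.33 to 0.50 in knockout cells, and the wider interval of the difference included 0 for each of them (from -1.98 to 0.69 for HY1, which differed most). HBII-85-4, at -0.91 in wild type, was at 0.88 (difference -1.79, counting interval -2.54 to -1.04, wider interval -3.32 to -0.26, and -4.08 to 0.50 with the snoRNA spread). snoRNAs as a whole spread more in knockout cells, with an SD of 0.32.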

How the data were processed

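Small RNA of MM6 cells was sequenced in 12 libraries, 3 in each of 4 groups set from the labels. Per the paper's methods, the authors trimmed and annotated the reads against hg19 with omiRas. The aligner was not given in the sources used here, nor was the scaling. The deposited signal columns hold the authors' mean of normalized counts per genotype, 1 table without LPS and 1 with LPS. Columns with the authors' knockout against wild-type log2 ratios, p-values and FDR were not used. Columns of single libraries were not analysed here. Precursors were left out because they count reads of the mature arms again.

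Log2 ratios of LPS to no LPS were computed with no pseudocount where the 2 means averaged at least 10, and were centred on RNAs with both means of at least 50. With 1 value per group no test was fitted, and called means at least 2-fold. Size factors were recovered as 3 steps whose whole multiples gave every mean of at most 10 (282 without and 271 with LPS, 100% in 1 way). They were 1.25, 1.02 and 0.883 without LPS and 1.72, 1.07 and 0.665 with LPS. The column sums were 10666084 and 9599778. Counting intervals were 95% Poisson intervals by the delta method, and the wider intervals add a dispersion from 75 and 58 RNAs of all types. An interval with the dispersion of the RNA's own type was added after the data were seen. Own-type dispersions rest on fewer RNAs. In wild type without and with LPS these were 41 and 29 mature miRNAs and 18 and 15 piRNA entries. For tRNA entries they were 11 and 9, and for snoRNAs 5 and 5. In knockout cells 6 and 9 snoRNAs were used. Libraries carry no molecular identifiers in the tables. The recovery and intervals were checked on simulated tables.

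The named RNAs were those of the largest centred ratios in each direction by type with a counting interval clear of 0, the 5 most abundant miRNAs and the members of fixed lists; tRNA entries of large signal, miR-142, miR-143-3p, tRNA-Tyr-TAC and further family members were named after their values were seen. Members and lists were chosen with earlier results of these data known. The alternatives were other scalings, pseudocounts of 1 and 10, other filters and leaving out recovered libraries. Python 3.11.15, numpy 2.4.6, pandas 2.3.3 and matplotlib 3.10.9 were used.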

Additional observations from a re-analysis of the deposited data

How the results depend on the processing

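No paired analysis was possible because the deposited columns are means that carry no replicate number and gave no test. The main counts were 19 RNAs at least 2-fold higher and 1 lower, 6 mature miRNAs higher and 1 lower, and 41 tRNA entries above 0. Without centring 3 RNAs were at least 2-fold lower. With a pseudocount of 10, 12 RNAs were higher and 0 lower, and 0 miRNAs were lower, since miR-484 came to -0.82 on the log2 scale. miR-221-5p (0.84), piR_022650 (0.94) and tRNA-Arg-CGA (0.70) also came under 2-fold there, and miR-146b-3p came from 4.45 to 3.37, miR-146a-3p from 3.62 to 1.53 and piR_011537 from 2.26 to 1.18, because a pseudocount shrinks the ratios of low means. With no filter on low values 46 RNAs were higher and 23 lower, among them 21 and 14 miRNAs. With an average of at least 50, where fewer RNAs are compared, 10 RNAs were higher and 0 lower, 0 miRNAs were lower, and 22 tRNA entries were above 0. The median of the tRNA entries ran from 0.40 to 0.66 over the scalings and pseudocounts. The other 46 counts and medians of this kind stayed within 1.5 times of the main value or within the spread. Under 6 scalings and pseudocounts 30 of 86 named RNAs changed sign, the largest of them 0.86 in size. Leaving out single libraries was possible only for means of at most 10, and piR_011537 then ranged from 1.67 to 3.46. Depth limited the low members, since a mean under 10 rests on few reads, and LPS and the table cannot be told apart.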
